A study of Mus musculus with 12 samples.

Results

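The high mobility group (HMG) chromatin proteins were followed through 9 genes of the deposited table, Hmgb1, Hmgb2, Hmgb3, Hmga1, Hmga2, Hmgn1, Hmgn2, Hmgn3 and Hmgn5, out of 24421 entries. They were taken by symbol, as the members of the 3 HMG families that were listed for this purpose. The values come from cerebellar cells of Aldh1l1-GFP reporter mice on the C57/BL6J background, both males and females, with no other treatment or allele. Green fluorescent cells were sorted at postnatal day 1 (P1), P7, P14 and P28, and RNA was sequenced in 3 libraries per age, 12 in all (polyA RNA by the labels' molecule field, total RNA as the input to the libraries by the protocols). The sexes were uneven over the ages. Xist, an RNA of female cells, was at 14.4 to 28.9 in the P1 libraries and at 18254 to 22155 in those of P14. P7 and P28 held libraries of both kinds. Between P1 and P14, age and sex therefore cannot be told apart. The question was how the HMG genes moved over the first 28 days, and whether Hmgb2, which the study stained as a protein after seeing these same libraries, moved differently from its relatives.

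HMG proteins are small, abundant, non-histone proteins that bind chromatin without a long recognition sequence. HMGB proteins carry HMG boxes, which grip the minor groove and bend DNA. HMGA proteins use AT-hooks, which lie in the minor groove of AT-rich DNA. HMGN proteins bind the nucleosome core itself and loosen compaction, in part by competing with linker histone H1. In the developing brain the HMGB and HMGA proteins are best known from dividing progenitors, and extracellular HMGB1 is also known as a danger signal.

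GFP in these mice is driven by the Aldh1l1 promoter, which marks astrocytes but is also active in progenitors, and the sorted libraries held other RNA. The summed normalized count of 10 astrocyte markers was 27413 to 68629 per library in the 6 younger libraries, 146266 to 182765 in those of P14 and 346478 to 404074 in those of P28. The sum of 7 oligodendrocyte markers was 1524 to 2369 at P1 and reached 310651 to 369455 at P14, above the astrocyte sum, before lying at 101682 to 141556 at P28. Aldh1l1 itself was read in all 12 libraries, from 936 in P7 replicate 2 to 6441 in P1 replicate 1. Choroid plexus markers, led by Ttr, ranged from 273 to 182142 across libraries, and in P14 replicate 3 they were at 877 against 63304 and 108741 in the other P14 libraries. The samples are therefore called Aldh1l1-GFP sorted cells here. Reads counted on genes ran from 6399499 in P7 replicate 2 to 14733985 in P1 replicate 1. In such bulk samples, fewer cells of a type and less RNA per cell cannot be told apart.

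The promoter sequences of the HMG genes differed in the motifs described here. Among the genes with a listed promoter, only Hmgb2 and Hmgb3, the family members that were lower at both of the last steps, held both motifs. The 250 bases before the RefSeq start (GRCm38.p6) were searched on both strands for CCAAT, the box bound by NF-Y, and for TTTGAA, the core of the cell cycle genes homology region. These motifs were chosen after the expression values were known. In the sequences, capitals mark a match on either strand, and no match of one motif overlapped the other.
Hmgb2, chr8:57511593-57511842, plus strand: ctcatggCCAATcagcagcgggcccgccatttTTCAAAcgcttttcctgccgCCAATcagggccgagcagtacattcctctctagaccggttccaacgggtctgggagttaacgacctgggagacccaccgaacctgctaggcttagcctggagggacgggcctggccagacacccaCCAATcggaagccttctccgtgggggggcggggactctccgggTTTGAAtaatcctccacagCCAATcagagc
Hmgb3, chrX:71555667-71555916, plus strand: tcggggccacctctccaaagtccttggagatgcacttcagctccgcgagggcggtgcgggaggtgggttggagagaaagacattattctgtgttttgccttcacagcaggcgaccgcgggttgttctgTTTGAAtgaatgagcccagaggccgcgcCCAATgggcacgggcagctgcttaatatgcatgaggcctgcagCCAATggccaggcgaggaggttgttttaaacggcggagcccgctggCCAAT
Hmgn2, chr4:133967992-133968241, minus strand: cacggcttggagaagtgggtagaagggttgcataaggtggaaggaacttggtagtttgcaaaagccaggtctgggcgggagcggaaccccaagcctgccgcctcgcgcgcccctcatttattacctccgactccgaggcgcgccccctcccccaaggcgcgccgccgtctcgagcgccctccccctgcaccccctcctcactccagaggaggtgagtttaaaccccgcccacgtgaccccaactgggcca
The Hmgb2 window held 4 CCAAT boxes and 2 TTTGAA matches, the nearest of these 30 to 25 bases before the start. The Hmgb3 window held 3 CCAAT boxes and 1 TTTGAA match, and the Hmgn2 window is shown as a relative with 0 of either. Among all 32851 promoter windows of the table, 0.840% held at least 4 CCAAT boxes, 2.79% at least 3, and 16.0% at least 1 TTTGAA. At least 4 CCAAT boxes together with TTTGAA, a combination of Hmgb2 but not of Hmgb3, stood in 0.134% of them. Hmgb1 has a pair of listed starts, of which 1 held 3 CCAAT boxes and the other 0. Hmgn1 and Hmgn5 held 2 each, Hmga1 and Hmga2 held 0, and none of these 5 genes had TTTGAA. A match is a string of letters and not a measured site, and the part of these motifs in the expression values was not tested. Hmgb1, with as many CCAAT boxes as Hmgb3 at 1 of its starts, and Hmgn2 were also called lower from P7 to P14. Hmgn3, called higher at that step, has no listed promoter.

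In outline, most HMG genes fell at the step from P7 to P14. All 8 HMG genes with enough expression to be tested were called there by limma, 7 lower (Hmgb1, Hmgb2, Hmgb3, Hmga2, Hmgn1, Hmgn2, Hmgn5) and 1 higher (Hmgn3), where a call is a Benjamini-Hochberg adjusted p under 0.05 over the 15464 genes tested. Of all genes tested, 10.0% were called lower and 10.8% higher at this step. From P1 to P7 only Hmga2 was called, as lower, against 4.24% lower and 3.47% higher of all genes. From P14 to P28, Hmgb2 and Hmgb3 were called lower, against 8.76% lower and 5.68% higher of all genes. Hmga1 had too few reads and was not tested, so these counts leave it out. The median log2 change of the 8 genes was 0.45, -1.79 and 0.19 in the 3 steps, beside 0.037, -0.086 and -0.12 for all genes. Libraries of the ages compared did not overlap for 7, 8 and 3 of the 8 genes, beside 38.3%, 46.1% and 26.1% of all genes tested.

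**Figure D1:**
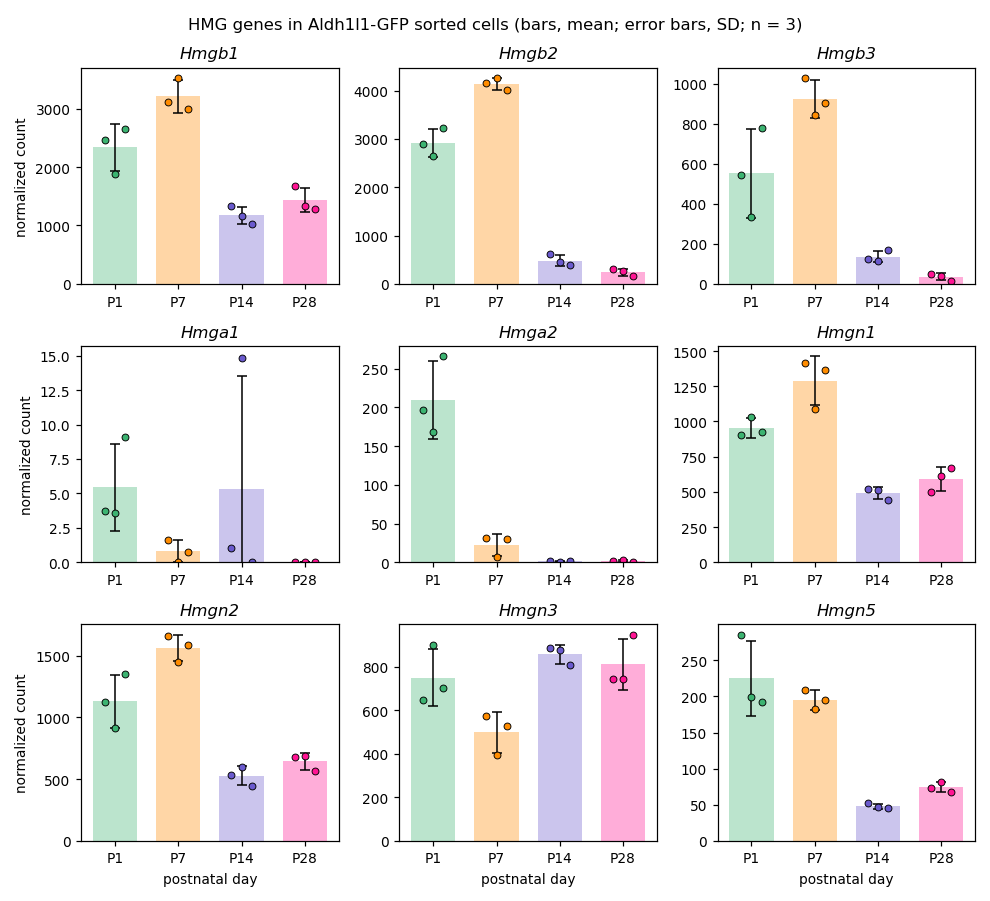
Normalized count (y axis, linear, a scale of its own in each panel) of the 9 HMG genes at P1, P7, P14 and P28 (x axis). Points are the 3 libraries, bars the mean and error bars the SD, cut at 0 for Hmga1. Hmgb1, Hmgb2, Hmgb3, Hmgn1 and Hmgn2 are highest at P7, Hmga2 at P1, and Hmgn3 is lowest at P7.

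Over the whole span from P1 to P28, 7 of the 8 genes were called lower and 0 higher, with Hmgn3 not called, against 20.0% lower and 14.6% higher of all genes. The same 7 were lower at P14 than at P1 (all genes 9.99% lower and 10.4% higher). From P7 to P28, 7 were lower and Hmgn3 higher (all genes 23.0% lower and 16.2% higher). With the threshold of the study, read here as an unadjusted p under 0.05 and a log2 change over 0.75 in either direction although neither the adjustment nor the log scale is stated, 1, 8, 2 and 5 HMG genes passed from P1 to P7, P7 to P14, P14 to P28 and P1 to P28, where 14.2%, 26.2%, 24.1% and 39.3% of all genes did. The calls from P1 to P28 that the fold requirement removed were those of Hmgb1 and Hmgn1.

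Hmgb2 (chr8:57511907-57515999, plus strand, GRCm38) encodes an HMG-box protein that is abundant in dividing cells and scarce in most adult tissues. Its normalized counts, which are reads divided by a size factor for each library, were 2890, 2651 and 3217 at P1. They were 4157, 4255 and 4009 at P7, 610, 443 and 383 at P14, and 308, 256 and 158 at P28. All P7 libraries lay above all P1 libraries, and the ages after P7 were lower with no overlap between any ages. Such separation is common here, since 26.1% to 48.3% of all genes tested had no overlap between a given pair of ages. The mean was 4140 ± 124 (SD, n = 3) at P7 and 479 ± 117 at P14. On the log2(value + 1) scale the change from P7 to P14 was -3.14 (SE 0.24, limma adjusted p = 9.16e-07), or 8.79-fold lower. From P14 to P28 it fell by a further 1.01 (SE 0.24, limma adjusted p = 0.0126), a call that was lost without P14 replicate 1 (-0.83, adjusted p = 0.0571) and when only these 6 libraries entered the fit (adjusted p = 0.159). The change from P1 to P7 was 0.51 (SE 0.24, limma adjusted p = 0.259) and was not called, although with only those 6 libraries in the fit the adjusted p was 0.0290.

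Hmgb3 (chrX:71555918-71560676, plus strand) encodes the X-linked HMG-box relative known from stem and progenitor cells. Its normalized counts were 546, 335 and 778 at P1, 1030, 844 and 903 at P7, 124, 115 and 169 at P14, and 49.7, 41.3 and 14.9 at P28. The ages did not overlap, and P28 replicate 3 stood lowest. The change was -2.77 from P7 to P14 (SE 0.43, limma adjusted p = 3.92e-04) and -2.06 from P14 to P28 (SE 0.43, adjusted p = 0.00747), the latter lost with only those 6 libraries (adjusted p = 0.156). P28 replicate 3 was also the only P28 library with Xist RNA in quantity, at 21061 against 24.8 and 62.5. The part of sex in the values of this gene and of the other HMG genes was not tested. At the other ages Xist was at 14.4 to 28.9 in the P1 libraries, at 24667, 90.3 and 25471 in P7 replicates 1 to 3, and at 18254 to 22155 in the P14 libraries.

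Hmgb1 (chr5:149046702-149184489, minus strand) encodes the most widely expressed HMG-box protein. Its normalized counts were 2468, 1889 and 2649 at P1, 3118, 3527 and 2990 at P7, 1325, 1168 and 1030 at P14, and 1672, 1336 and 1287 at P28. P7 was highest in every library and P14 and P28 overlapped. The gene fell by 1.46 on the log2 scale from P7 to P14 (SE 0.18, limma adjusted p = 4.31e-05) and then changed by 0.28 (SE 0.18, adjusted p = 0.302), which was not called. At P28 its mean of 1432 ± 209 (SD, n = 3) was 1.62-fold below the P1 mean of 2335 ± 397 on the log2 scale of the fit (adjusted p = 0.00695). Hmgb1 shares sequence with 86 other genes, more than any other HMG gene, and 37.3% of the 75-base windows of its longest transcript occur in their transcripts. For Hmgb2 that share was 20.8% and for Hmgb3 24.7%, and how the counting treated such reads is not stated.

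**Figure D2:**
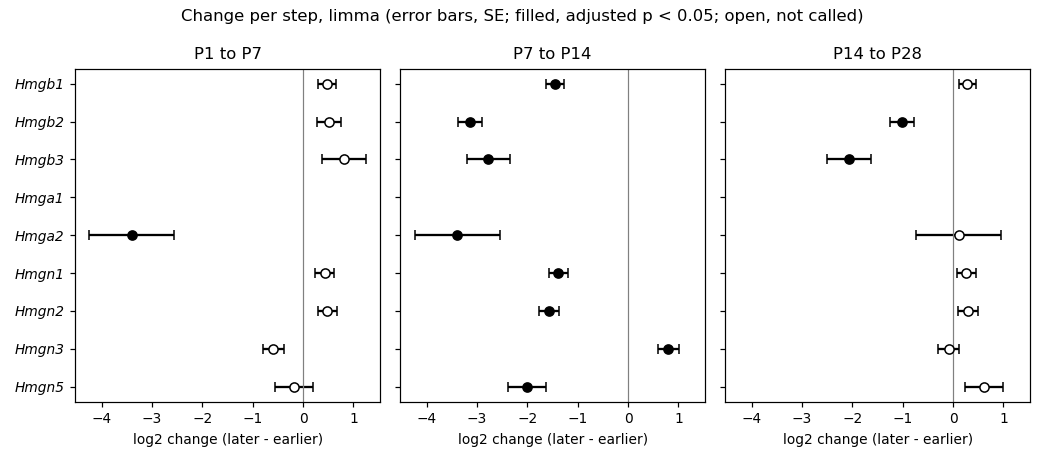
limma log2 change (x axis, later minus earlier age, on log2(normalized count + 1)) of each HMG gene at the 3 consecutive steps. Filled points passed an adjusted p of 0.05 over all genes, open points did not, bars are SE, and Hmga1 was not tested. The P7 to P14 panel holds 8 filled points, 7 to the left of 0 and Hmgn3 to the right.

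Hmga2 (chr10:120361275-120476469, minus strand) encodes an AT-hook protein of embryonic progenitors. Its normalized counts were 196, 168 and 266 at P1, 31.1, 6.54 and 30.2 at P7, 2.12, 0 and 1.09 at P14, and 1.46, 2.36 and 0 at P28. Summed over the 3 libraries of an age, P1 held 905 reads, P7 83, and P14 and P28 3 each, so the gene was close to the floor after P7. Every P1 library lay above every P7 library, and every P7 library above every later one. Summed reads scaled by size factor were 8.31-fold higher at P1 than at P7 (95% interval 6.63 to 10.5), 195-fold higher than at P14 (66.5 to 948) and 158-fold higher than at P28 (53.8 to 766), where the intervals cover counting error only.

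In the fit over all genes, the Hmga2 change was -3.40 from P1 to P7 (SE 0.85, limma adjusted p = 0.0233) and -3.39 from P7 to P14 (SE 0.85, adjusted p = 0.0101). The first call was lost without P1 replicate 1, 2 or 3 (adjusted p = 0.0818, 0.0650 and 0.0779) or P7 replicate 2 (-2.71, adjusted p = 0.136). The second was lost without P7 replicate 1 (adjusted p = 0.0574) or P7 replicate 3 (adjusted p = 0.0561). Hmgn3 and the barely detected Hmga1 were also lower in every P7 library than in any P1 library, without a call, while Hmgb1, Hmgb2, Hmgb3, Hmgn1 and Hmgn2 had their highest values at P7. Between P1 and P7, 38.3% of all genes tested had no overlap.

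Hmga2 is also a textbook target of the let-7 family of microRNAs, which accumulate as tissues mature, and its 3′ untranslated region (UTR) is shown for this reason. No microRNA was measured in these libraries. In the RefSeq table, 9 mature family sequences share the seed GAGGUAG, of which let-7a and let-7i are printed with the seed in capitals. The match CTACCTC occurred 4 times in the 3014 bases of the longest annotated Hmga2 3′ UTR (GENCODE M21), and capitals mark it in the 26 bases around each.
mmu-let-7a-5p: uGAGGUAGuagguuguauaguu
mmu-let-7i-5p: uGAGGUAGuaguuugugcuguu
Hmga2, UTR bases 58 to 64: gccgacattcaatttCTACCTCagca
Hmga2, UTR bases 1295 to 1301: ccccactcctcaataCTACCTCtgaa
Hmga2, UTR bases 1733 to 1739: ctgatttgcaaggaaCTACCTCcaca
Hmga2, UTR bases 2591 to 2597: aatcaaaacacactaCTACCTCttaa
Of 1877 genes whose 3′ UTR is within 20 percent of that length, 16.7% held a match and 0.107% held at least 4. Hmga1 had 1 match, and the other 7 HMG genes had 0. Among the RNA-binding proteins of the Lin28 and Igf2bp families, of which Lin28a and Lin28b are the known blockers of let-7 maturation, only the 3 Igf2bp genes had enough reads to be tested, and all 3 were lower at P28 than at P1, as were 20.0% of all genes. Igf2bp1, itself a known let-7 target, had a normalized count of 367 ± 61.2 (SD, n = 3) at P1 and 18.8 ± 5.80 at P7 (log2 change -4.25, limma adjusted p = 0.00722). At that step Igf2bp2 (-2.51, adjusted p = 0.140) and Igf2bp3 (-0.93, adjusted p = 0.186) were not called, where 4.24% of all genes were lower. The 1 call there became 0 with a pseudocount of 0.1 and 3 with only those time points in the fit. From P1 to P28 the log2 change of Igf2bp2 was -6.36 (adjusted p = 1.50e-04) and that of Igf2bp3 -3.18 (adjusted p = 2.53e-05). The part of let-7 in the values of these genes and of Hmga2 was not tested.

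Hmga1 (chr17:27556497-27563674, plus strand), the other AT-hook gene, was hardly detected. Its normalized counts were 3.69, 3.57 and 9.09 at P1, 1.59, 0 and 0.775 at P7, 1.06, 14.8 and 0 at P14, and 0, 0 and 0 at P28. P14 replicate 2 alone held 14 of the 15 reads at P14. Against the P28 libraries, the 23 reads at P1 were at least 4.01-fold higher, with the group of 3 at P28 set to a floor of 3 reads. These values are uncertain, because 64.3% of the 75-base windows of the Hmga1 transcript occur in transcripts of other genes.

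Hmgn1 and Hmgn2 encode the pair of nucleosome-binding HMGN proteins found in nearly all cells. Hmgn1 (chr16:96120618-96127729, minus strand) had normalized counts of 902, 1032 and 925 at P1, 1414, 1092 and 1362 at P7, 519, 512 and 443 at P14, and 497, 614 and 667 at P28. Hmgn2 (chr4:133964738-133968650, minus strand) had 1123, 916 and 1349 at P1, 1657, 1446 and 1584 at P7, 535, 600 and 447 at P14, and 678, 690 and 564 at P28. For both genes every P7 library was above all others and P14 and P28 overlapped. The change from P7 to P14 was -1.38 for Hmgn1 (SE 0.19, limma adjusted p = 1.23e-04) and -1.57 for Hmgn2 (SE 0.19, adjusted p = 5.18e-05).

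From P14 to P28 neither was called, with log2 changes of 0.26 (adjusted p = 0.379) and 0.29 (adjusted p = 0.340) in limma. Net from P1 to P28 both were lower, with log2 changes of -0.69 for Hmgn1 (adjusted p = 0.0112, and 0.0514 with only those 6 libraries) and -0.80 for Hmgn2 (adjusted p = 0.00594). The Hmgn2 counts carry a caveat of their own, since 55.9% of its 75-base windows recur in Gm10282.

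Hmgn5 (chrX:109004534-109013404, minus strand), the X-linked HMGN gene with an acidic tail, had normalized counts of 285, 199 and 192 at P1, 209, 182 and 195 at P7, 51.9, 46.5 and 45.6 at P14, and 73.1, 81.4 and 67.6 at P28. P1 and P7 overlapped, P14 was lowest in every library, and P28 lay between. The log2 change was -2.00 from P7 to P14 (SE 0.38, limma adjusted p = 0.00156) and 0.61 from P14 to P28 (SE 0.38, adjusted p = 0.298), which was not called. P28 replicate 3, the library with Xist, was lowest among the P28 libraries here too, at 67.6 beside 73.1 and 81.4. It was also lowest at P28 for Hmgb1, Hmgb2, Hmga2 and Hmgn2, which are not X-linked, and highest for Hmgn1 and Hmgn3.

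Hmgn3 (chr9:83109948-83146685, minus strand) encodes the HMGN protein known from brain and endocrine tissue, and it was the only HMG gene called higher at any step. Its normalized counts were 648, 900 and 705 at P1, 573, 394 and 529 at P7, 889, 878 and 808 at P14, and 747, 743 and 948 at P28. The P7 libraries were the lowest, and P1, P14 and P28 overlapped. The gene rose by 0.80 from P7 to P14 (SE 0.21, limma adjusted p = 0.0135). That call was lost without P7 replicate 2 (0.64, adjusted p = 0.0738) and with scaling by library totals (0.54, adjusted p = 0.0656). P7 replicate 2 was the shallowest library and also differed from P7 replicates 1 and 3 in markers. Its endothelial sum was 8561 beside 2174 and 1486, and its astrocyte sum 27413 beside 50682 and 47500. Its Xist was at 90.3 beside 24667 and 25471. The change from P1 to P28 was 0.12 (SE 0.21, adjusted p = 0.690). Exons of Hmgn3 overlap 255 bases of Gm29054 on the opposite strand, and whether the counting used strand is not stated.

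Set per kilobase of annotated exon, so that genes can be compared with each other, Hmgb2 had the highest level of the HMG genes at P7 and lay behind Hmgn3, Hmgn2, Hmgb1 and Hmgn1 at P28. This order depends on how reads in shared sequence were counted, above all for Hmgn2 and Hmgb1, and with those reads dropped it could differ. At P7 the level was 1575 ± 47.1 normalized counts per kilobase for Hmgb2 (SD, n = 3), 1235 ± 84.6 for Hmgn2, 1011 ± 88.4 for Hmgb1, 593 ± 79.6 for Hmgn1, 528 ± 54.3 for Hmgb3 and 507 ± 95.0 for Hmgn3. The last 3 overlapped, and the gaps between the first 3 were wider than the SD of either neighbour. At P28 the order was Hmgn3 (827 ± 119), Hmgn2 (509 ± 55.0), Hmgb1 (451 ± 65.9), Hmgn1 (273 ± 40.0), Hmgb2 (91.6 ± 29.0), Hmgn5 (38.3 ± 3.58), Hmgb3 (20.1 ± 10.4), Hmga2 and Hmga1. Of these neighbours, Hmgn2 and Hmgb1 overlapped between libraries, as did Hmga2 and Hmga1 near 0. The share of Hmgb2 in the summed normalized counts of the 9 genes was 32.1% and 34.9% in the first week, then 12.9% at P14 and 6.28% at P28.

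The contrast of Hmgb2 with each relative was tested on the log2 ratio of the pair within a library, in which the scaling of that library cancels except for the pseudocount. The ratio to Hmgb1 was 0.23, 0.49 and 0.28 at P1, 0.41, 0.27 and 0.42 at P7, -1.12, -1.40 and -1.42 at P14, and -2.43, -2.38 and -3.02 at P28. It was level over the first week and lower at each later age without overlap. The 4 ages differed in an exact permutation test over all 15400 ways to assign the libraries to 4 ages (p = 5.84e-04). Since the study had singled out Hmgb2 from these libraries, these p-values, which were not adjusted over the 8 ratios, describe the difference and are not independent evidence.

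Against the HMGN genes the ratio was also lower after P7. It was level over the first week for Hmgn1 and Hmgn2, while for Hmgn3 and Hmgn5 every P7 ratio was above every P1 ratio. The mean ratio to Hmgn1 was 1.61 and 1.69 at P1 and P7, -0.061 at P14 and -1.34 at P28 (exact permutation p = 4.55e-04). To Hmgn2 it was 1.38, 1.41, -0.16 and -1.46 (exact p = 5.19e-04), and to Hmgn3 1.97, 3.07, -0.87 and -1.79 (exact p = 6.49e-05, the smallest this test can give). To Hmgn5 it was 3.71, 4.40, 3.27 and 1.64 (exact p = 1.30e-04). In all 4 cases every P14 and P28 ratio was below every P7 ratio, so Hmgb2 was lower after P7 relative to each of these genes.

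Against Hmgb3 the test over the 4 ages detected no difference. The ratio was 2.40, 2.98 and 2.05 at P1, 2.01, 2.33 and 2.15 at P7, 2.29, 1.93 and 1.17 at P14, and 2.61, 2.60 and 3.33 at P28 (exact permutation p = 0.0671). The ages overlapped from P1 to P14, and the exact p was 0.0309, 0.0425 and 0.0288 without P1 replicate 2, P1 replicate 3 and P14 replicate 1. Every P28 ratio was above every P7 and P14 ratio, which describes these libraries and was not tested on its own. Hmgb3 held only 34, 35 and 11 reads in the P28 libraries. P28 and P1 overlapped. Against Hmga2 the main difference lay earlier, with a mean ratio of 3.81 on day 1, then 7.72, 7.98 and 6.85 (exact p = 0.00532), where the later values depend on the pseudocount because Hmga2 was near 0. The ratio to Hmga1 (exact p = 0.00481, and 0.0945 with a pseudocount of 0.1) rests on at most 14 reads per library.

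**Figure D3:**
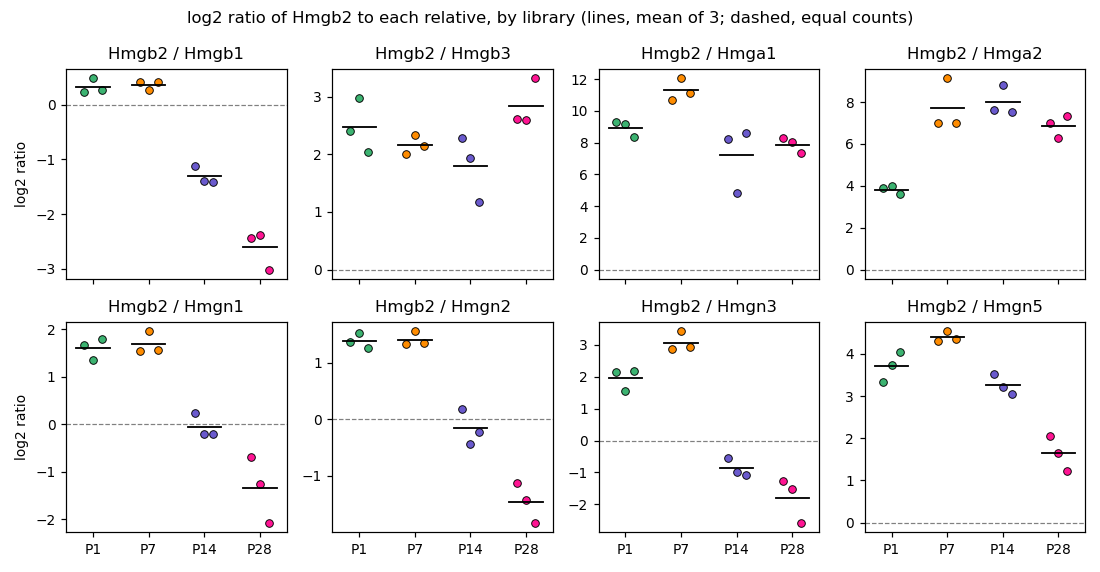
log2 ratio of Hmgb2 to each of 8 relatives (y axis, from log2(normalized count + 1), not corrected for gene length) in each library at P1, P7, P14 and P28 (x axis). Points are libraries, lines the mean of 3, and the dashed line marks equal counts. The ratios to Hmgb1, Hmgn1, Hmgn2 and Hmgn3 change sign between P7 and P28, and the ratio to Hmgb3 stays between 1.17 and 3.33.

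Among the 10211 genes with a mean normalized count of at least 100, those most like Hmgb2 over the 12 libraries were Cenpf (Pearson r = 0.990), Mcm7 (0.987), Bub1 (0.986), Ccnb2 (0.985), Rbl1 (0.984), Dtl (0.984), Tpx2 (0.983), Casc5 (0.982), Tox3 (0.981) and Armcx4 (0.981). Cenpf, Bub1, Tpx2 and Casc5 act at the mitotic spindle and kinetochore, Ccnb2 is a mitotic cyclin, and Mcm7 and Dtl act in DNA replication. Tox3 is itself an HMG-box gene, though not among the members followed here. Its log2 change from P7 to P14 was -3.66 (limma adjusted p = 1.44e-05). Among the relatives, Hmgb3 ranked 42 (r = 0.964), Hmgn2 323 (0.898), Hmgb1 343 (0.895), Hmgn5 471 (0.874), Hmgn1 536 (0.864) and Hmgn3 8298 (-0.69). Hmgb1 was closer to Hmgn2 (r = 0.975) than to Hmgb2. These coefficients describe 12 points that fall into 4 ages and share libraries and depth.

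The summed normalized count of 22 proliferation genes moved with Hmgb2, ranging over the libraries of P1 from 14532 to 23649, of P7 from 29872 to 36452, of P14 from 2063 to 3195 and of P28 from 1527 to 1667. All 22 were called lower from P7 to P14, with a median log2 change of -4.34, and 11 were lower from P14 to P28, where 10.0% and 8.76% of all genes were lower. The count of 11 was 7 without P14 replicate 1 and 3 with only those time points in the fit, and with at least 10 reads required in every library the counts were 6 and 0. That read requirement takes genes out of the test, so a gene missing from these counts need not have lost its call. Of the 3 most abundant, Mki67 had a normalized count of 11544 ± 2031 (SD, n = 3) at P7 and 394 ± 160 at P14, and Top2a 7078 ± 894 and 318 ± 79.7. Pcna was at 1927 ± 126 and 783 ± 190 (log2 change -1.32, limma adjusted p = 5.98e-04), beside -3.14 for Hmgb2. At P28 Top2a was at 5.27 ± 1.05, while Hmgb2 was still at 241 ± 76.2. The part of dividing cells in the Hmgb2 values was not tested.

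**Figure D4:**
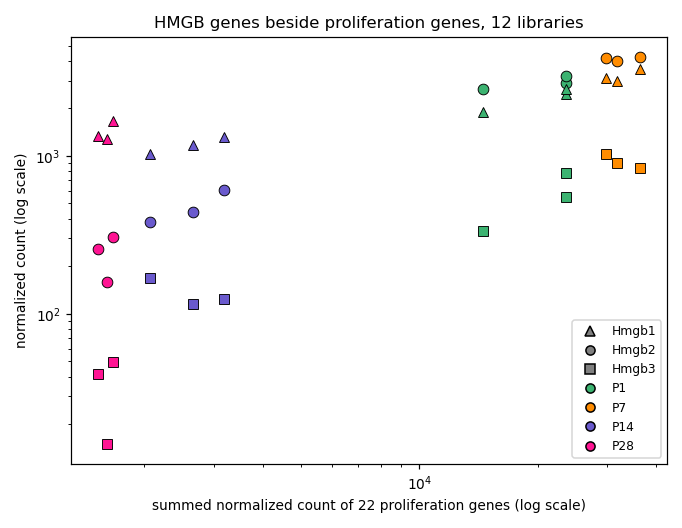
Normalized count of Hmgb1 (triangles), Hmgb2 (circles) and Hmgb3 (squares) on the y axis against the summed normalized count of 22 proliferation genes on the x axis, both log scales, 1 point per library and colored by age. Hmgb2 lies above Hmgb1 at P1 and P7 and below it at P14 and P28, while Hmgb3 is lowest of the 3 at every age.

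Other markers moved over the same step. From P7 to P14, limma called 8 of 10 astrocyte and 7 of 7 oligodendrocyte markers higher and 5 of 6 GABAergic lineage markers lower. At this step 10.8% of all genes were called higher and 10.0% lower. The sum of 6 GABAergic lineage markers was 3057 to 5900 at P7 and 237 to 1707 at the other ages. Of 7 neuronal markers 3 were called higher (Snap25, Syt1 and Rbfox3, with log2 changes of 3.18, 1.72 and 0.79) and 3 lower, among them Dcx, of immature neurons (-3.80). The sum of 8 granule lineage markers was 10759 to 11602 at P7 and 8754 to 15286 at P14. Of these, Gabra6 and Cbln1, of mature granule neurons, were called higher (log2 changes 6.06 and 3.61) and Atoh1, of their precursors, lower (-5.21). Microglial markers summed to 449 to 2775 and endothelial markers to 724 to 8561 over the 12 libraries, the last in P7 replicate 2. Markers also moved from P1 to P7, where 5 of 10 astrocyte markers were called lower and 2 higher. There 7 of 7 oligodendrocyte, 5 of 8 granule lineage and 4 of 7 neuronal markers were called higher. Of all genes, 4.24% were lower and 3.47% higher from P1 to P7. The oligodendrocyte sum rose from 21697 to 33358 at P7 to its P14 values. The part of cell mixture in the HMG changes at either step was not tested.

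Proteins that work beside the HMG family were read from lists. Of 17 other HMG-box genes tested, the first week brought 2 higher and 0 lower, the step from P7 to P14 brought 0 higher and 8 lower, and 0 were called after that. Of all genes, 3.47% were called higher in the first week and 10.0% lower from P7 to P14. Whsc1, a histone methyltransferase, went from 4865 ± 221 at P7 to 1236 ± 95.3 at P14 (log2 change -1.98, limma adjusted p = 3.10e-06), and Pbrm1, a chromatin remodeling subunit, from 3631 ± 208 to 1696 ± 47.8 (-1.10, adjusted p = 2.31e-04). Both were also the genes called higher from P1 to P7, but that count of 2 was 0 without P1 replicate 1, P1 replicate 2 or any 1 of the P7 libraries, and 6 with only those time points in the fit. Cic, a transcriptional repressor, was at 1515 ± 224 and 1410 ± 84.3 and was not called (adjusted p = 0.742).

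Linker histones, which compete with HMGN and HMGB proteins on the nucleosome, were lower in 5 of 7 genes from P7 to P14, in 3 from P14 to P28 and in 6 from P1 to P28, where 10.0%, 8.76% and 20.0% of all genes were lower. The count of 3 was 1 without P14 replicate 1 and 0 with only those time points in the fit, and with at least 10 reads required in every library the 5 and the 6 were both 3. Here too the read requirement takes genes out of the test, so the missing ones need not have lost a call. Hist1h1e was at 1736 ± 399 at P7 and 598 ± 167 at P14 (log2 change -1.55, limma adjusted p = 0.00649), and Hist1h1b at 1715 ± 232 and 114 ± 3.55 (-3.89, adjusted p = 0.00373). H1f0, the linker histone of non-dividing cells, was at 2126 ± 353 and 1472 ± 150 (SD, n = 3) and was not called (adjusted p = 0.274). Most mRNAs of the clustered linker histone genes lack a polyA tail, and the labels name polyA RNA as the molecule where the protocols describe libraries made from total RNA.

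Of 14 histone chaperones, 7 were lower from P7 to P14 and 9 from P1 to P28, with 0 higher, where 10.0% and 20.0% of all genes were lower. The count of 7 was 11 without P28 replicate 3, 11 in DESeq2, 12 with library totals and 13 with only those time points in the fit. Npm1 changed by -1.37 from P7 to P14 (limma adjusted p = 3.61e-05) and Nap1l1 by -1.28 (adjusted p = 0.00210), while Supt6 was at 2135 ± 162 and 2146 ± 318 (SD, n = 3) and was not called (adjusted p = 1.00). Of 5 partners of HMGB2 in the SET complex, 2 were lower from P7 to P14 (10.0% of all genes), namely Set (-1.55, adjusted p = 6.15e-05) and Anp32a (-0.89, adjusted p = 0.00388). Nme1, at 234 ± 75.5 and 142 ± 58.6, was not called (adjusted p = 0.293). Set, a histone chaperone, was at 2230 ± 137 at P7 and 763 ± 45.4 at P14.

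Of 6 receptors and binding partners of extracellular HMGB1, 1 was lower from P7 to P14, and from P1 to P28 3 were lower and 1 higher, where 10.0% of all genes were lower at the first of these and 20.0% lower and 14.6% higher at the second. The count of 1 from P7 to P14 was 2 without P28 replicate 1 or P28 replicate 3. It was also 2 with a pseudocount of 10, with library totals and in DESeq2, and 7 of the alternatives run moved it. Cd24a, a surface sialoglycoprotein, went from 4105 ± 408 at P7 to 551 ± 127 at P14 (log2 change -2.91, limma adjusted p = 2.53e-05). Tlr4, an innate immune receptor, was higher at P28 than at P1 (log2 change 2.45, adjusted p = 0.00721), at 196 ± 154 against 30.3 ± 11.7, with a wide spread at P28. Cxcr4, a chemokine receptor, was lower over the same span (log2 change -2.42, adjusted p = 5.02e-04).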

How the data were processed

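RNA of 12 libraries was counted per gene. The authors aligned reads to mm10 with STAR (version 2.5.0a), counted them with GenomicAlignments on UCSC transcripts, and scaled them by DESeq2 size factors (version 1.30.1 in the processing notes). The deposited values are a signal, the count divided by one size factor per library. Dividing by the step of each library gave whole reads (within 0.01) for 100% of values. Strand use and the treatment of multi-mapped reads are not given in the sources used here. Columns were matched by the names in the labels, with 0 columns left over. All 12 names carry P28 whatever the age, so the ages rest on the labels.

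limma (version 3.58.1, R 4.3.3) was run on log2(value + 1) for 15464 genes, those that reached a value of 10 in 3 or more libraries, in one fit of 4 ages with a variance trend. The pseudocount shrinks the fold changes of weakly expressed genes. edgeR (version 4.0.16, quasi-likelihood test) and DESeq2 (version 1.42.0) were run on the recovered reads as alternatives, beside other scalings, filters and pseudocounts, the replicate block and each library left out. Ratios were tested by exact permutation. For a single pair of ages, 3 libraries against 3 cannot go below an exact p of 0.1. The scripts were tested on simulated counts. The replicates are those of the labels, and nothing says that they came from separate animals, so p-values measure the spread between libraries, which may be technical. Reads on genes per library were 6399499 to 14733985, and 3 reads are the floor for a gene at 0.

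Named were the 9 HMG genes, the 3 most abundant tested genes of each list, and the 10 genes most correlated with Hmgb2. Dcx, Snap25, Syt1, Rbfox3, Gabra6, Cbln1, Atoh1, Ttr, Aldh1l1 and Xist are markers named outside this rule, after their values were seen. The genes and lists were chosen with earlier results of these data known. Annotation came from GENCODE M21, and promoter and microRNA sequences from RefSeq (GRCm38.p6), where 8 of the 9 genes were matched, all but Hmgn3.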

Additional observations from a re-analysis of the deposited data

How the results depend on the processing

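The number of HMG genes called from P1 to P7, 1, became 0 with a pseudocount of 0.1, 0 with at least 10 reads in every library (which leaves Hmga2 out of the test), and 2 with only the time points compared, and ran from 0 to 1 with each library left out. From P14 to P28 the 2 calls became 0 with only the time points compared, and ran from 1 to 2 with a library left out. The counts of 8 from P7 to P14 and 7 from P1 to P28 stayed within 1.5 times under all alternatives run. The change of Hmga2 from P14 to P28, which was not called, ran from -0.33 to 0.62 with a library left out, and that of Hmgn3 from P1 to P28 was -0.32 with library totals, which moved the median of all genes from -0.24 to -0.66 at that comparison. The change of the Hmgb2 to Hmgb3 ratio from P7 to P14 ran from -0.61 to -0.052 with a library left out, that to Hmga1 was -4.32 with a pseudocount of 0.1, and that to Hmga2, 0.26, was -1.66 with a pseudocount of 10 and ran from -0.15 to 0.97 with a library left out, since Hmga2 held 3 reads at P14. For single HMG genes, 712 values under alternatives kept direction and side of the threshold, 15 lost a call, 1 gained one and 4 reversed. Of 644 values of the list counts, 556 were within 1.5 times of the reported count and 88 were not.

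Libraries share replicate numbers across ages, and nothing in the labels says that the numbers pair them. Of 18 same-number pairs, 1 had a correlation of deviations over 0.1, with a range from -0.029 to 0.139 and a median of 0.031. Of 36 pairs with different numbers 0 did, with a range from -0.105 to 0.054 and a median of -0.011. With the replicate block the counts of HMG genes called were 1, 8, 2 and 7 in the order P1 to P7, P7 to P14, P14 to P28 and P1 to P28, as without it. Depth limits Hmga1 and, after P7, Hmga2, while the remaining 7 genes had at least 11 reads in every library.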
